A study of Mus musculus with 2 samples.

Results

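The heat-shock chaperones and co-chaperones described here are 10 genes, of 32285 in the deposited gene list: Hspa1a, Hspa1b, Hspa8, Hsph1, Hsp90aa1, Dnajb1, Hspb1, Hspd1, Hspe1 and Bag3. They were chosen by symbol, with their differences between the 2 libraries already known, so every ratio between the libraries below is a description and not a test. UMIs of Hspa1a and Hspa1b were summed, because the coding sequences of these genes are nearly identical, and the sum is called HSP70 below. The 10 genes thus give 9 measured units.

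The cells came from mouse tumours grown under the skin from B16F10-OVA, a melanoma cell line that carries the model antigen ovalbumin. One group received UDSP-Hep and the other received PBS, the buffer control, each on days 10, 12, 14 and 16, and both were harvested on day 19. In each group 3 tumours were pooled, cells bearing CD45, the surface protein shared by leukocytes, were sorted, and about 10000 cells were loaded for droplet sequencing. Strain, sex and age of the mice, and what the name UDSP-Hep stands for, are not given in the sources used here. Each group is therefore 1 library with no replicate, and the treatment, the pool of tumours and the handling of the tissue cannot be told apart in any difference below. After filtering, 7194 UDSP-Hep cells with 55827476 UMIs and 6717 PBS cells with 66102473 UMIs remained, with median depths of 5483 UMIs per UDSP-Hep cell and 7874 UMIs per PBS cell, and median mitochondrial shares of 2.15% in UDSP-Hep and 2.20% in PBS. Only 25 barcodes occurred in both libraries. Cell classes were rebuilt from marker genes, with the heat-shock genes left out of the clustering, and 8 classes had at least 50 cells in each library. All markers listed for these 8 classes were detected in the class in both libraries, and at least 10 CPM was reached by all 8 neutrophil, all 7 basophil, all 7 NK, all 7 CD8 T, all 11 Treg, all 8 CD4 T and all 19 dendritic markers in each library, and by 23 UDSP-Hep and 21 PBS of the 23 macrophage and monocyte markers. CPM scales the UMIs of a gene to all UMIs of the class, and UMIs are tagged molecules counted once.

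Chaperones of the HSP70 family bind unfolded stretches of protein and release them in a cycle driven by ATP. J-domain proteins such as Dnajb1 deliver clients and start the cycle, and HSP110 and BAG proteins such as Hsph1 and Bag3 help to end it by releasing the nucleotide. HSP90 finishes the folding of many kinases and receptors, small heat-shock proteins such as Hspb1 hold unfolded proteins without using ATP, and Hspd1 with its lid Hspe1 forms the folding chamber of mitochondria. The transcription factor HSF1 switches many of these genes on when cells are heated or their proteins are damaged, by binding inverted repeats of short units in their promoters. In cells taken from solid tissue the inducible HSP70 genes are also known to respond to the preparation itself.

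The promoters are shown because these genes are usually described as targets of a shared element. RefSeq promoters on GRCm38.p6, each 300 bases long and ending 50 bases after the annotated start, were available for 8 of the 10 genes. They were searched for GAANNTTC and TTCNNGAA, each of which is its own reverse complement, so that both strands were covered, and matches were allowed to overlap. At least 1 match was found for 7 of these 8 genes (Hspa1a, Hspa1b, Hspb1, Hspd1, Hspe1, Hsph1 and Bag3), and at least 2 matches for 4 of them. Counted by promoter, since some genes have 2, 8 of their 11 promoters held at least 1 match. Of all 32851 promoters of this length, 15.1% held at least 1 match and 1.96% held at least 2. The 130 bases before the start of the 2 HSP70 genes and of Hspb1, and a short stretch before the start of Hspe1, are printed. Matches are in capitals, and each stretch runs 5′ to 3′ on the strand of the gene named.
Hspa1a (chr17:34972157-34972286, minus strand): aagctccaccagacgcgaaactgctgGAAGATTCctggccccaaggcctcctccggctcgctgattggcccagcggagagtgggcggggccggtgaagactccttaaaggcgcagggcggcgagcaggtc
Hspa1b (chr17:34959239-34959368, minus strand): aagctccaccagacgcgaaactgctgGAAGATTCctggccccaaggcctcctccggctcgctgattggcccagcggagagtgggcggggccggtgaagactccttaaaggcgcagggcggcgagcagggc
Hspb1 (chr5:135887789-135887918, plus strand): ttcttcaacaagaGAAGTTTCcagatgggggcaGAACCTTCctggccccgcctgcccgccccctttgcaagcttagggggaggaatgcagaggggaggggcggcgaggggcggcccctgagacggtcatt
Hspe1 (chr1:55088054-55088081, plus strand): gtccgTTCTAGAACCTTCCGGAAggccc
Hspe1 and Hspd1 lie head to head on chromosome 1, with annotated spans that overlap. The run of 3 overlapping matches stands before the start of Hspe1 and before 1 of the 2 annotated starts of Hspd1. It lies inside the annotated span of Hspd1 (55077835 to 55088243). The windows of Hspa1a and Hspa1b were the same at 296 of 300 bases, and within the printed stretch they differed at 1 base. A match describes letters in a window and is not evidence of binding.

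The copies are near-identical as proteins but not at the end of their transcripts. In GENCODE M21, the longest open reading frames of Hspa1a (ENSMUSG00000091971) and Hspa1b (ENSMUSG00000090877) had 1923 and 1926 bases and were identical at 1915 of 1926 aligned bases, and their translations of 641 and 642 residues shared 641 residues. The constitutive Hspa8 had 83.9% protein identity with Hspa1a and 84.7% with Hspa1b. Over the last 500 bases of the transcripts, Hspa1a and Hspa1b were 42.5% identical, against 42.3% for Hspa1a with Hspa8. Whether UMIs were assigned to the right copy depends on where reads lie, which the deposited counts do not show, so the split between the copies is given as uncertain.

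HSP70, the inducible chaperone, was lower in the UDSP-Hep library past 1.5-fold in 7 of the 8 classes. Past 1.5-fold means a CPM ratio, UDSP-Hep over PBS, of at most 1 over 1.5 or at least 1.5, with at least 50 UMIs in both libraries together. Intervals of CPM are exact Poisson and those of ratios exact conditional binomial, at 95%. All cover counting error only, not the difference between mice or between the cells of a class. Macrophages and monocytes, the most numerous class, had 207 CPM of HSP70 in UDSP-Hep cells (202 to 213) and 2355 CPM in PBS cells (2340 to 2371), a ratio of 0.0880 (0.0857 to 0.0903). These values rest on 6063 UMIs in 2790 UDSP-Hep cells and 90783 UMIs in 3982 PBS cells. By the same size rule, 4.34% of all measured genes were lower and 11% higher in this class.

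The other myeloid classes differed in how far the libraries stood apart. Dendritic cells had 150 CPM in UDSP-Hep and 660 CPM in PBS, a ratio of 0.227 (0.210 to 0.246). Basophils had 38.4 CPM in UDSP-Hep (19.8 to 67.0) and 4198 CPM in PBS (4033 to 4367), a ratio of 0.00914 (0.00472 to 0.0160), from 12 UMIs in 59 UDSP-Hep cells and 2455 UMIs in 117 PBS cells. The log2 ratio, -6.77 as reported, ranged from -7.31 with every cell weighed the same to -2.74 with doublets kept. As reported, this was the lowest ratio of the 8 classes and also the highest PBS level. Neutrophils did not pass the fold, with 578 CPM in UDSP-Hep (546 to 612) and 742 CPM in PBS (613 to 890), a ratio of 0.779 (0.644 to 0.951). The PBS library held only 55 neutrophils with 116 HSP70 UMIs, against 839 UDSP-Hep neutrophils with 1195 UMIs. The UMIs came from 67 UDSP-Hep and 14 PBS neutrophils, and the log2 ratio, -0.36 as reported, ranged from -2.14 to 1.07 over the alternatives, so no direction is given.

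Every compared class of lymphocytes was lower in UDSP-Hep. NK cells had 50.7 CPM in UDSP-Hep and 322 CPM in PBS (ratio 0.157, 0.138 to 0.180), and Treg, the regulatory CD4 T cells, had 47.4 CPM in UDSP-Hep and 322 CPM in PBS (0.147, 0.119 to 0.181). CD8 T cells had 119 CPM in UDSP-Hep and 454 CPM in PBS (0.262, 0.235 to 0.291). Other CD4 T cells had 200 CPM in UDSP-Hep and 1507 CPM in PBS (0.133, 0.111 to 0.158).

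**Figure D1:**
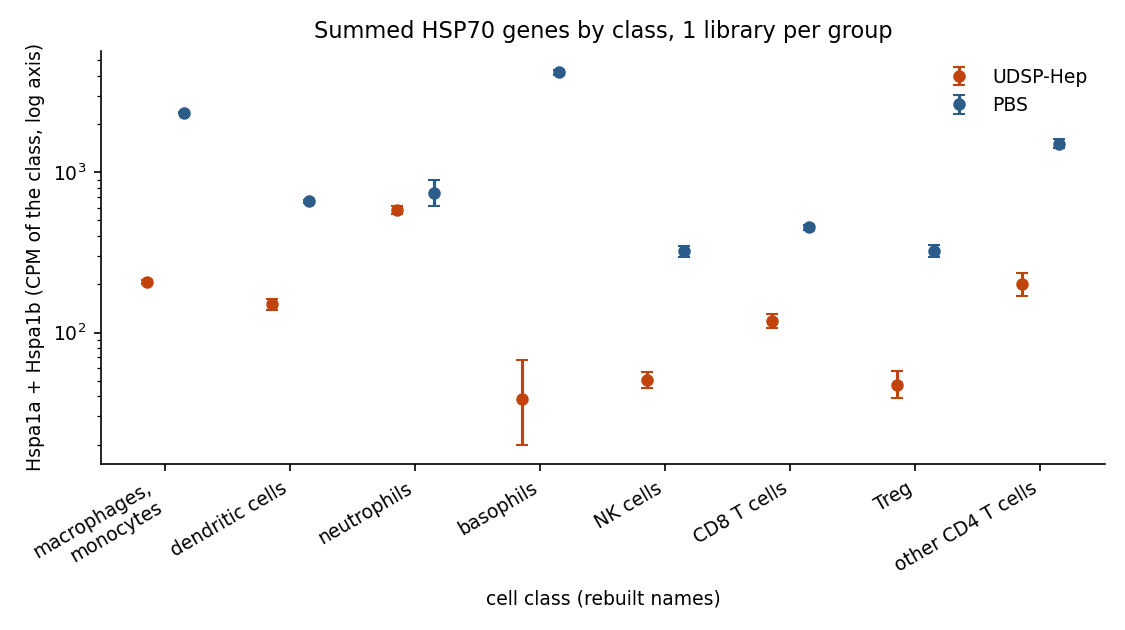
Summed Hspa1a and Hspa1b in CPM of the class (log axis) for the 8 classes with at least 50 cells per library, UDSP-Hep in orange left of PBS in blue, 1 library each. Bars are exact Poisson 95% intervals. The libraries lie furthest apart in basophils, at 38.4 and 4198 CPM, and closest in neutrophils, at 578 and 742 CPM.

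The order of the classes was not the same in the libraries. Overlap is that of the counting intervals, which leave out the spread between cells, so separate ranks are less firm than they look. In UDSP-Hep, neutrophils came first, followed by macrophages and monocytes and other CD4 T cells, whose intervals overlapped, then dendritic cells and CD8 T cells, and then NK cells, Treg and basophils, whose neighbours overlapped. In PBS, basophils came first, then macrophages and monocytes, other CD4 T cells, and neutrophils and dendritic cells, whose intervals overlapped, then CD8 T cells, and last Treg and NK cells, which overlapped. Classes below 50 cells in a library are given as values only. Plasmacytoid dendritic cells had 2 HSP70 UMIs in 36 UDSP-Hep cells and 70 in 84 PBS cells, gamma-delta T cells 8 in 13 UDSP-Hep cells and 84 in 41 PBS cells, and B cells 3 in 68 UDSP-Hep cells and 28 in 47 PBS cells. Eosinophils had 2056 CPM in 133 UDSP-Hep cells and 10050 CPM in 7 PBS cells, the PBS value from 44 UMIs. Of the 7 eosinophil markers, 4 were at 0 in those PBS cells and 1 in the UDSP-Hep cells. Cells without a class name had 381 CPM in UDSP-Hep and 640 CPM in PBS.

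The copies were low together in most classes, with neutrophils, where few cells held the UMIs, as the exception. Hspa1a made up 35.8% of the summed UMIs of macrophages and monocytes in UDSP-Hep (exact binomial 34.6% to 37.1%) and 39.7% in PBS (39.4% to 40.04%). In neutrophils its share was 18.2% in UDSP-Hep (16.0% to 20.5%) and 64.7% in PBS (55.2% to 73.3%). Hspa1a stood at 105 CPM in UDSP-Hep neutrophils and 480 CPM in PBS neutrophils, and Hspa1b at 473 CPM in UDSP-Hep neutrophils and 262 CPM in PBS neutrophils, so the neutrophil sum joins copies that differed in opposite directions. In other CD4 T cells the Hspa1a share was 18.7% in UDSP-Hep (12.8% to 25.8%) and 35.3% in PBS (32.1% to 38.7%).

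Single cells showed that HSP70 was concentrated in few cells, and that the libraries differed in how many such cells they held. Among macrophages and monocytes, 28.7% of UDSP-Hep cells and 57.7% of PBS cells had at least 1 HSP70 UMI. With every cell thinned to 1000 UMIs, which left out 19 UDSP-Hep and 45 PBS cells, the shares were 7.54% in UDSP-Hep and 31.0% in PBS. The median cell held no HSP70 UMI in UDSP-Hep and 0.951 per 10000 UMIs in PBS. The 90th percentile was 2.39 UMIs per 10000 UMIs of the cell in UDSP-Hep and 103 in PBS, and the 99th was 43.1 in UDSP-Hep and 447 in PBS. The 10% of cells with the most HSP70 UMIs held 90.3% of them in UDSP-Hep and 78.0% in PBS. The highest single cell reached 611 per 10000 in UDSP-Hep and 2310 in PBS.

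Cells at 50 or more HSP70 UMIs per 10000 were counted as a range of high levels, not as a cell type. They were 27 of 2790 macrophages and monocytes in UDSP-Hep, or 0.968% (exact binomial 0.639% to 1.41%), and 586 of 3982 in PBS, or 14.7% (13.6% to 15.9%). Around that mark, 4 UDSP-Hep and 61 PBS cells had 40 to 50 per 10000, and 0 UDSP-Hep and 46 PBS cells had 50 to 60. The PBS counts fell gradually, from 814 cells at 20 or more to 586 at 50 and 408 at 100. In UDSP-Hep they were 50, 27 and 15 cells. The mark is therefore a chosen level and not a gap between 2 groups of cells. In basophils 0 of 59 UDSP-Hep cells reached the mark, which by the limit of 3 counts that a count of 0 allows leaves a share of up to 5.08% (exact binomial 6.06%), and 15 of 117 PBS cells did (12.8%, 7.36% to 20.3%). In Treg the counts were 0 of 277 UDSP-Hep cells, which by the same limit leaves up to 1.08% (exact binomial 1.32%), and 5 of 205 PBS cells. NK cells had 2 of 1457 in UDSP-Hep and 7 of 445 in PBS, CD8 T cells 3 of 472 in UDSP-Hep and 15 of 503 in PBS, and other CD4 T cells 1 of 176 in UDSP-Hep and 5 of 114 in PBS. Dendritic cells had 1 of 333 in UDSP-Hep and 25 of 684 in PBS. Neutrophils had 17 of 839 in UDSP-Hep and 3 of 55 in PBS, shares of 2.03% in UDSP-Hep (1.19% to 3.22%) and 5.45% in PBS (1.14% to 15.1%), whose intervals overlap.

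**Figure D2:**
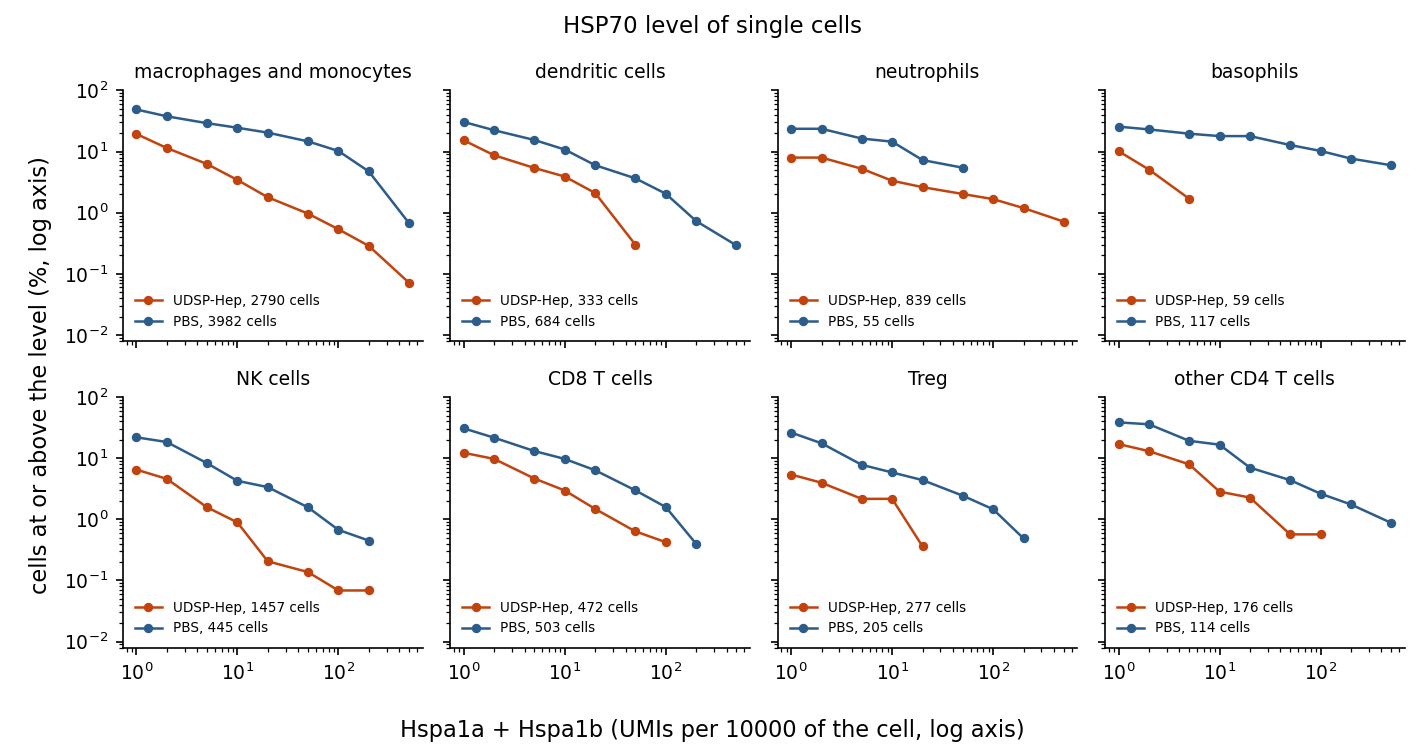
Share of cells (%, log axis) at or above each level of summed Hspa1a and Hspa1b (UMIs per 10000 of the cell, log axis), in 8 classes, UDSP-Hep in orange and PBS in blue, with points at 0 not drawn. In macrophages and monocytes the share at 50 or above is 0.968% for UDSP-Hep and 14.7% for PBS.

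Droplets can hold free RNA, which gives UMIs to cells that do not express a gene, and no class is known to lack inducible HSP70. With cells thinned to 1000 UMIs, NK cells with a HSP70 UMI made up 2.30% in UDSP-Hep and 9.22% in PBS. Both shares were below those of macrophages and monocytes, and the unthinned median depth of NK cells was 3953 UMIs in UDSP-Hep and 3980 UMIs in PBS. The 9 macrophage markers summed to 93.5 CPM in UDSP-Hep NK cells and 59.0 CPM in PBS NK cells, and to 4873 and 4413 CPM in UDSP-Hep and PBS macrophages and monocytes. The part of free RNA in the HSP70 values of the smaller classes was not tested.

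Within macrophages and monocytes HSP70 was lower in UDSP-Hep in all 13 clusters with at least 20 cells per library, with ratios between 0.0780 and 0.255. The level in PBS differed between clusters, from 396 to 5496 CPM. Cluster M2, led by Inhba, Nos2, Ero1l and Egln3, had the highest levels in both libraries, with 915 CPM in UDSP-Hep and 5496 CPM in PBS. Egln3 and Ero1l are known to respond to low oxygen. M2 had no leading marker of a monocyte or macrophage subset and was placed in the class by its markers against cells that are not phagocytes. Cluster M0, which had Hspa1a and Hspa1b among its 10 leading genes although neither was used to form it, had 746 CPM in UDSP-Hep and 4936 CPM in PBS. Cells at 50 or more per 10000 made up 6.75% of 163 UDSP-Hep and 28.9% of 637 PBS cells in M2, and 2.94% of 136 UDSP-Hep and 29.1% of 561 PBS cells in M0. Cluster M14, led by Vcam1 and C1q genes, was lowest, with 101 CPM in UDSP-Hep and 396 CPM in PBS. Cell numbers per cluster differed between the libraries too, and giving each cluster the same weight moved the log2 ratio of HSP70 to -2.87, from the -3.51 of the class sum.

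**Figure D3:**
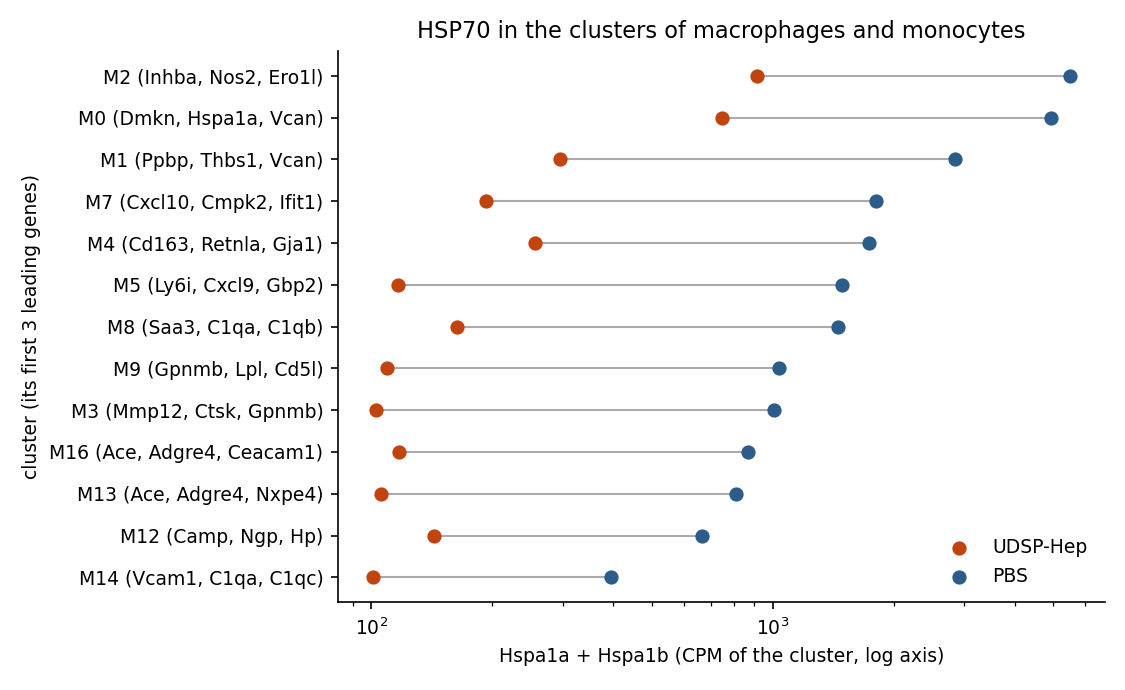
Summed Hspa1a and Hspa1b in CPM (log axis) for the 13 clusters of macrophages and monocytes, labelled with their first 3 leading genes, UDSP-Hep in orange and PBS in blue, joined by a line. In every cluster shown the UDSP-Hep point lies left of the PBS point, and M2 and M0 are highest in both.

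In the other classes, HSP70 was lower past the fold in 4 of 4 dendritic clusters, 4 of 4 CD8 T clusters, 2 of 2 NK clusters and 1 of 2 Treg clusters. The remaining Treg cluster, led by the proliferation genes Top2a and Mki67, had the ratio 0.781. Only clusters with a class name and at least 20 cells per library were counted. Of the unnamed ones, T10 had Foxp3 and Ctla4 among its leading genes and a mean doublet score of 0.11, past the naming limit of 0.1. Its HSP70 was 707 CPM in 116 UDSP-Hep cells and 758 CPM in 120 PBS cells, a ratio of 0.932. The unnamed T2 had 108 CPM in 341 UDSP-Hep cells and 430 CPM in 297 PBS cells, a ratio of 0.252.

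Hspa8, the constitutive HSP70 that most cells carry at all times, did not pass 1.5-fold in any of the 8 classes. Macrophages and monocytes had 1757 CPM in UDSP-Hep and 1877 CPM in PBS (ratio 0.936, 0.926 to 0.947), and 97.1% of UDSP-Hep and 97.2% of PBS cells had a Hspa8 UMI. Its ratios across the 8 classes were 0.683 in neutrophils to 1.07 in Treg. Hspa8 (ENSMUSG00000015656) lies on chromosome 9 from 40800984 to 40810087.

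Hsph1 (chromosome 5, 149614287 to 149636376), the HSP110 that releases nucleotide from HSP70, stood at 44.0 CPM in UDSP-Hep and 112 CPM in PBS macrophages and monocytes, a ratio of 0.392 (0.368 to 0.417). It was also lower past the fold in neutrophils (29.5 CPM in UDSP-Hep and 51.1 CPM in PBS), basophils (32.0 CPM in UDSP-Hep and 129.9 CPM in PBS), NK cells (44.4 CPM in UDSP-Hep and 84.2 CPM in PBS) and CD8 T cells (82.3 CPM in UDSP-Hep and 129 CPM in PBS). In neutrophils the PBS value rests on 8 UMIs and its ratio of 0.577 has the interval 0.275 to 1.40, and its direction turned with every cell weighed the same or thinned to 1000 UMIs. The calls ended with the per-cell gate in basophils, with thinning in NK cells, and with clusters weighed the same in CD8 T cells. In other CD4 T cells Hsph1 had 108 CPM in UDSP-Hep and 102 CPM in PBS, and did not pass. Across the 13 macrophage and monocyte clusters, Hsph1 was lower past the fold in 9 and higher in 1, M16, with 32.7 CPM in UDSP-Hep and 19.3 CPM in PBS. The M16 values rest on 80 UMIs in 402 UDSP-Hep cells and only 10 UMIs in 93 PBS cells, so no direction is given there.

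Dnajb1 (chromosome 8, 83608193 to 83612653), the J-domain partner of inducible HSP70, stood at 40.7 CPM in UDSP-Hep and 68.2 CPM in PBS macrophages and monocytes, a ratio of 0.597 (0.557 to 0.640). Dendritic cells (ratio 0.655), neutrophils (0.638), NK cells (0.575) and other CD4 T cells (0.529) were also lower past the fold. The call ended with clusters weighed the same in macrophages and monocytes (log2 ratio -0.57) and in dendritic cells (-0.43). It ended with the per-cell gate in other CD4 T cells (-0.12). Over the alternatives the log2 ratio in macrophages and monocytes came as near equality as -0.47, also inside the fold. In neutrophils the value rests on 59 UDSP-Hep UMIs and 7 PBS UMIs, and its log2 ratio reached -2.45 at a minimum of 1000 UMIs per cell. Basophils went the other way, with 598 CPM in UDSP-Hep (515 to 690) and 380 CPM in PBS (331 to 433), a ratio of 1.58 (1.29 to 1.92), in the class where HSP70 had its lowest ratio. The UMIs came from 35.6% of UDSP-Hep and 39.3% of PBS basophils, and the log2 ratio of 0.66 turned to -0.14 with every cell thinned to 1000 UMIs and was 0.21 with doublets kept. Basophils also had the highest Dnajb1 level of the 8 classes in both libraries.

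Bag3 (chromosome 7, 128523616 to 128546981), an exchange factor that links HSP70 to autophagy, was lower past the fold in macrophages and monocytes alone among the 5 classes in which it had 50 UMIs. There it stood at 26.0 CPM in UDSP-Hep and 41.0 CPM in PBS, a ratio of 0.634 (0.581 to 0.692), and the call ended with cells thinned to 1000 UMIs (log2 ratio -0.23) and with clusters weighed the same. Dendritic cells had 17.6 CPM in UDSP-Hep and 17.8 CPM in PBS.

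Hsp90aa1 (chromosome 12, 110690605 to 110702728), the inducible cytosolic HSP90, was lower past the fold in 4 of 8 classes. Macrophages and monocytes had 320 CPM in UDSP-Hep (313 to 326) and 744 CPM in PBS (736 to 753), a ratio of 0.429. Basophils had 265 CPM in UDSP-Hep and 1843 CPM in PBS (ratio 0.144, 0.114 to 0.180), neutrophils 616 CPM in UDSP-Hep and 1036 CPM in PBS (0.594, 0.504 to 0.704), and CD8 T cells 458 CPM in UDSP-Hep and 748 CPM in PBS (0.613, 0.578 to 0.649), where the call ended with clusters weighed the same. In dendritic cells the values were 383 CPM in UDSP-Hep and 410 CPM in PBS. Its constitutive paralogue Hsp90ab1 had 1028 CPM in UDSP-Hep and 1096 CPM in PBS macrophages and monocytes and did not pass the fold.

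Hspb1 (chromosome 5, 135887919 to 135889563), the small heat-shock protein HSP27, was found in few cells of any class. Macrophages and monocytes had 3.28 CPM in UDSP-Hep from 96 UMIs and 40.5 CPM in PBS from 1561 UMIs, a ratio of 0.0810 (0.0652 to 0.0996), which is close to that of HSP70. A Hspb1 UMI was found in 0.430% of UDSP-Hep and 3.57% of PBS cells of the class. The Nos2 cluster M2, with 163 UDSP-Hep and 637 PBS cells, held 85 of the 96 UDSP-Hep UMIs and 731 of the 1561 PBS UMIs. It had 54.5 CPM in UDSP-Hep and 147 CPM in PBS. Its Hspb1 ratio was 0.370 and its HSP70 ratio 0.167, so the likeness of the class ratios did not hold in M2. Of the other 7 classes only CD8 T cells reached 50 UMIs, with 7.05 CPM in UDSP-Hep and 12.2 CPM in PBS (ratio 0.578). Those UMIs came from 1 UDSP-Hep and 18 PBS cells, and the direction turned with every cell weighed the same. Basophils had 2 UMIs in UDSP-Hep and 40 in PBS, and dendritic cells 1 in UDSP-Hep and 36 in PBS.

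The mitochondrial chamber genes Hspd1 (chromosome 1, 55077835 to 55088243) and Hspe1 (chromosome 1, 55088132 to 55091307) were near each other in most classes and did not pass the fold in macrophages and monocytes. There Hspd1 had 93.9 CPM in UDSP-Hep and 135 CPM in PBS (ratio 0.697, 0.665 to 0.730), and Hspe1 had 212 CPM in UDSP-Hep and 310 CPM in PBS (0.684, 0.663 to 0.705). Hspe1 was lower past the fold in other CD4 T cells, with 215 CPM in UDSP-Hep and 356 CPM in PBS (0.604), a call that ended with the per-cell gate and with every cell weighed the same. In basophils Hspe1 had 25.6 CPM in UDSP-Hep and 233 CPM in PBS (0.110, 0.0465 to 0.223), and Hspd1 51.2 CPM in UDSP-Hep and 97.5 CPM in PBS (0.525, 0.281 to 0.927). The log2 ratio of Hspd1 in basophils, -0.93 as reported, was -0.10 with the per-cell gate and -2.93 with cells thinned to 1000 UMIs. Hspd1 in neutrophils counted as higher, with 72 UMIs in UDSP-Hep and 1 UMI in PBS (ratio 5.45, 0.947 to 218), an interval that includes equality, and the direction turned under 5 of the alternatives.

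**Figure D4:**
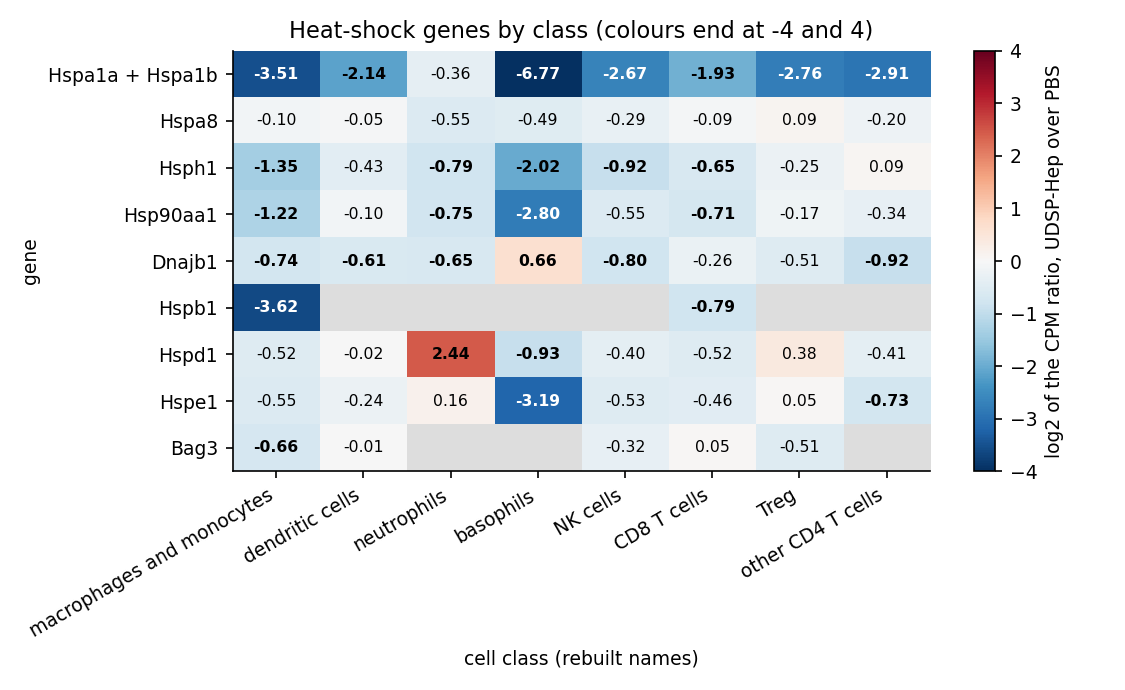
Log2 of the CPM ratio, UDSP-Hep over PBS, for the 9 measured units (rows) in the 8 classes (columns). Values past 1.5-fold are in bold, and grey marks pairs under 50 UMIs. The summed Hspa1a and Hspa1b has the lowest ratio among the units with at least 50 UMIs in 6 of the 8 columns, all but macrophages and monocytes and neutrophils, and Hspa8 has no bold value.

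Of the 72 pairs of a unit and a class, 27 were lower in UDSP-Hep past the fold and 2 were higher. Since the genes were chosen for this contrast, the shares of all measured genes are given beside the count of each class and nothing is read from the comparison. In macrophages and monocytes 6 of 9 measured units were lower and 0 higher, where 4.34% of all genes were lower and 11% higher, and the median log2 ratio was -0.74 against 0.13 over all genes. In dendritic cells 2 of 8 were lower and 0 higher, where 5.17% of all genes were lower and 6.6% higher. In neutrophils 3 of 7 were lower and 1 higher, where 12.2% of all genes were lower and 30.6% higher. In basophils 5 of 7 were lower and 1 higher (all genes 8.7% lower and 11% higher), with a median of -2.02. In NK cells 3 of 8 were lower and 0 higher (all genes 2.99% lower and 5.98% higher). In CD8 T cells 4 of 9 were lower and 0 higher (all genes 6.78% lower and 12.5% higher). In Treg 1 of 8, HSP70 itself, was lower and 0 higher (all genes 3.41% lower and 5.56% higher). In other CD4 T cells 3 of 7 were lower and 0 higher (all genes 5.06% lower and 9.35% higher).

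Sorting macrophages and monocytes by their own HSP70 level showed how the other units went with it inside each library. Hsp90aa1 stood at 267 CPM in UDSP-Hep and 361 CPM in PBS cells with no HSP70 UMI, at 2076 and 2158 CPM in UDSP-Hep and PBS cells with 50 to 200 per 10000, and at 4870 and 4966 CPM in UDSP-Hep and PBS cells with 200 or more. Hsph1 stood at 28.2 CPM in UDSP-Hep and 37.5 CPM in PBS cells without HSP70, and at 1188 and 931 CPM in UDSP-Hep and PBS cells with 200 or more. Hspa8, which hardly differed between the libraries, stood at 1714 CPM in UDSP-Hep and 1563 CPM in PBS cells without HSP70, and at 5369 and 4981 CPM in UDSP-Hep and PBS cells with 200 or more. At lower levels the Hsp90aa1 values lay further apart, at 521 CPM in UDSP-Hep and 776 CPM in PBS cells with 5 to 50 per 10000.

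The other units were also higher at 200 or more than in cells without HSP70. Hspd1 had 87.1 CPM in UDSP-Hep and 89.8 CPM in PBS cells without HSP70, and 261 and 417 CPM in UDSP-Hep and PBS cells with 200 or more. Dnajb1 had 37.5 CPM in UDSP-Hep and 41.4 CPM in PBS cells without HSP70, and 356 and 370 CPM in UDSP-Hep and PBS cells with 200 or more. Hspe1 had 196 CPM in UDSP-Hep and 207 CPM in PBS cells without HSP70, and 1069 and 1155 CPM in UDSP-Hep and PBS cells with 200 or more. Bag3 had 24.1 CPM in UDSP-Hep and 25.1 CPM in PBS cells without HSP70, and 618 and 236 CPM in UDSP-Hep and PBS cells with 200 or more. Hspb1 had 0.374 CPM in UDSP-Hep and 2.35 CPM in PBS cells without HSP70, and 214 and 454 CPM in UDSP-Hep and PBS cells with 200 or more. The rise was not particular to the units. Dnaja1 had 106 CPM in UDSP-Hep and 128 CPM in PBS cells without HSP70, and 1877 and 1297 CPM with 200 or more. Hsp90ab1 had 996 CPM in UDSP-Hep and 884 CPM in PBS cells without HSP70, and 2803 and 2486 CPM with 200 or more. The share of all genes that were higher there was not tested. The highest level held 8 UDSP-Hep and 189 PBS cells and the next held 19 UDSP-Hep and 397 PBS cells, so the UDSP-Hep values there rest on fewer than 20 cells each. These cells were shallower, with median UMIs of 4586 in UDSP-Hep and 5740 in PBS at 200 or more, against 8263 in UDSP-Hep and 7889 in PBS without HSP70, while their median mitochondrial shares were 2.06% in UDSP-Hep and 2.26% in PBS.

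**Figure D5:**
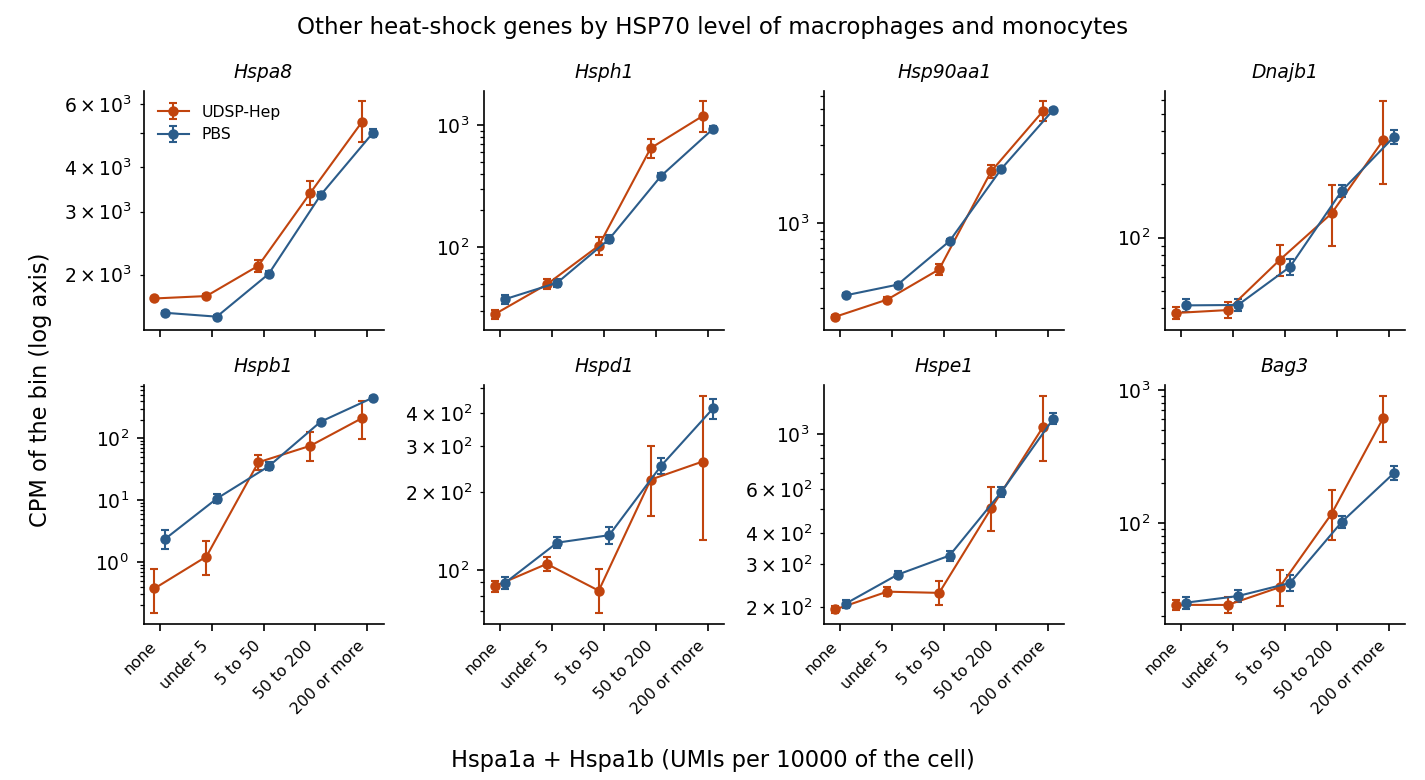
CPM (log axis, a range of its own in each panel) of 8 other heat-shock genes in macrophages and monocytes sorted by their summed Hspa1a and Hspa1b level (UMIs per 10000 of the cell), UDSP-Hep in orange left of PBS in blue. Bars are exact Poisson 95% intervals. All 8 genes are higher at 200 or more than at none in both libraries, with 8 UDSP-Hep and 189 PBS cells at the highest level. Dnaja1 and Hsp90ab1, which are not drawn, are also higher there.

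Over single cells thinned to 2000 UMIs, Pearson's r with HSP70 was highest among the other units for Hsp90aa1 (0.54) and Hsph1 (0.44) in the 3806 PBS macrophages and monocytes, and for Hsph1 (0.28) and Hsp90aa1 (0.23) in the 2698 UDSP-Hep ones. Outside the 10 genes, the genes most like HSP70 in UDSP-Hep cells were Dnaja1 (0.22), a J-domain protein, Hmox1 (0.18), the heme oxygenase, and Jun (0.12), followed by Slc2a1, Tatdn2, Odc1, Mdm2, Bhlhe40, Tent5c and Rhob, all at 0.11 or less. In PBS cells they were Dnaja1 (0.44), Jun (0.42), Hmox1 (0.37), Rhob (0.36) and Cxcr4 (0.34), followed by Ppp1r15a, Bhlhe40, Atf3, Slc2a1 and Hsp90ab1, from 0.28 to 0.25. Cells of a library share its depth and free RNA, and these values are a description. Over the 16 sums of a class in a library, log2(CPM + 10) of HSP70 was most like that of AY036118 (r = 0.71), D730003I15Rik (0.58), Sp140 (0.56), Gtf2e2 (0.55), Gpatch2l (0.55), Oas3 (0.54), Zfand2a (0.54), Arpc5 (0.53) and Fau (0.52) among 8948 genes. Of the other units Hsp90aa1 had 0.75, Hspb1 0.59, Hsph1 0.52, Hspe1 0.17, Dnajb1 0.11, Hspa8 0.08, Bag3 0.07 and Hspd1 -0.09. Points of a library share its preparation, and no p is given.

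Of all measured genes in macrophages and monocytes, 4.34% were lower past the fold and 11% higher, with a median log2 ratio of 0.13. The rest of the chaperone network was, like most genes, mostly within the fold in this class. None of the 3 other small heat-shock proteins measured, the 8 TRiC subunits, the 7 mitochondrial chaperones other than Hspd1 and Hspe1, the 7 exchange factors and HSP70 partners, the 13 measured endoplasmic reticulum chaperones or the 4 heat-shock factors and regulators passed it, with median log2 ratios of -0.13, -0.17, -0.11, 0.09, 0.04 and -0.05. The endoplasmic reticulum HSP70 Hspa5 had 534 CPM in UDSP-Hep and 616 CPM in PBS. Among 14 HSP90 genes and co-chaperones 1 was higher and 0 lower, Fkbp5, with 57.6 CPM in UDSP-Hep and 32.6 CPM in PBS. Among 7 measured J-domain proteins 1 was lower, Dnaja1, with 122 CPM in UDSP-Hep and 231 CPM in PBS (ratio 0.529, 0.509 to 0.550). Among 5 other cytosolic HSP70 and HSP110 genes 1 was lower, Hspa1l, with 1.47 CPM in UDSP-Hep and 2.23 CPM in PBS. Hspa2 was higher past the fold in 3 other classes, from few UMIs. It had 101 UDSP-Hep and 18 PBS UMIs in NK cells (ratio 1.79, 1.08 to 3.15). Dendritic cells had 39 UDSP-Hep and 53 PBS UMIs of Hspa2 (1.70, 1.10 to 2.62). CD8 T cells had 31 UDSP-Hep and 33 PBS UMIs of it (1.65, 0.978 to 2.78), an interval that includes equality. Hspa1l lies beside the Hspa1a and Hspa1b genes and is close to them in sequence, so reads may be shared.

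Other heat-inducible genes were mixed. In macrophages and monocytes 4.34% of all genes were lower past the fold and 11% higher. Of 10, 4 were lower past the fold in macrophages and monocytes: Mt2 (19.3 CPM in UDSP-Hep and 84.4 CPM in PBS) and Mt1 (415 CPM in UDSP-Hep and 888 CPM in PBS), which encode metal-binding metallothioneins, Hmox1 (259.9 CPM in UDSP-Hep and 566 CPM in PBS), and Zfand2a (25.5 CPM in UDSP-Hep and 49.3 CPM in PBS), which encodes a regulator of the proteasome. Sqstm1, an autophagy receptor, had 136 CPM in UDSP-Hep and 120 CPM in PBS there and was higher past the fold in 4 other classes. Rgs2 had 482 CPM in UDSP-Hep and 355 CPM in PBS, and was higher past the fold in 3 other classes.

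Immediate early genes, which cells also switch on within minutes of stimulation or handling, were mostly within the fold or higher. As a list of 10 they summed to 11980 CPM in UDSP-Hep and 9804 CPM in PBS macrophages and monocytes. There 1 was lower, Jun (411 CPM in UDSP-Hep and 654 CPM in PBS), and 2 were higher, Nr4a1 (788 CPM in UDSP-Hep and 385 CPM in PBS) and Fosb (285 CPM in UDSP-Hep and 168 CPM in PBS). Of all genes in this class 4.34% were lower and 11% higher. Nr4a1 was also a naming marker of nonclassical monocytes. Their cluster M16 held 402 UDSP-Hep and 93 PBS cells, and M13 held 286 UDSP-Hep and 232 PBS cells. The part of these cell numbers in the Nr4a1 ratio was not tested. In CD8 T cells 9 of 10 were higher, with a median log2 ratio of 1.15 (all genes 12.5% higher, median 0.05). Among them were Junb (1461 CPM in UDSP-Hep and 554 CPM in PBS), Fos (222 CPM in UDSP-Hep and 87.6 CPM in PBS), Dusp1 (500.4 CPM in UDSP-Hep and 231 CPM in PBS), Ier2 (ratio 2.26) and Zfp36 (ratio 1.84). The CD8 T clusters differed in cell numbers, with 45 UDSP-Hep and 137 PBS cells in T0, led by proliferation genes, and 245 UDSP-Hep and 85 PBS cells in T3. The part of this in the immediate early values was not tested. Of the other classes, 7 of 10 were higher in Treg (all genes 5.56%), 7 of 9 in other CD4 T cells (9.35%), 5 of 10 in dendritic cells (6.6%) and 4 of 10 in basophils (11%). In NK cells 4 of 10 were higher and 1 lower (all genes 5.98% higher and 2.99% lower). In neutrophils 0 of 10 were higher and 2 lower (all genes 30.6% higher and 12.2% lower). Jun was lower past the fold in 3 classes and higher in none of the 8. The 8 neutrophil markers summed to 343 CPM in UDSP-Hep and 263 CPM in PBS macrophages and monocytes, and to 62.7 CPM in UDSP-Hep and 12.6 CPM in PBS NK cells, and their part in any result above was not tested.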

How the data were processed

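Droplet libraries of sorted CD45+ tumour leukocytes were analysed, 1 for UDSP-Hep and 1 for PBS. The authors deposited unnormalized UMI counts for every gene in every barcode. The submitters' processing notes list Cell Ranger 7.0.0, mm10 and Seurat, with no role for the last. No source used here states the read end of the kit.

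Barcodes with fewer than 200 genes, fewer than 500 UMIs or 10% or more mitochondrial UMIs were dropped (197 UDSP-Hep and 245 PBS). Scrublet's own threshold marked 0.0129% of UDSP-Hep and 0.0138% of PBS barcodes, so the highest scores at 0.8% per 1000 barcodes (481 UDSP-Hep and 417 PBS) were removed instead. Both libraries were clustered together without integration in scanpy 1.11.5 (2000 variable genes without 101 heat-shock, chaperone and immediate early genes, 30 principal components, 15 neighbours, Leiden resolution 1.0), and lymphoid and phagocyte clusters once more. Clusters were named from marker lists, with limits chosen once values were known, so names are rebuilt and a class such as NK cells stands for NK-like cells. A gate on each cell's own markers gave the same class to 94.3% of the 11022 cells named by both. UMIs were summed per class and library and divided by all UMIs of the class. With 1 library per group there was no test across samples and no p-value. The code for the ratio and its interval was run on simulated class sums, drawn as independent Poisson counts without single cells. That setting cannot show how the interval holds where few cells carry most UMIs of a gene.

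The 10 genes, the other gene lists and the markers were chosen with earlier results of these data known. Other list genes were named if past 1.5-fold in macrophages and monocytes or in at least 3 classes. Genes most like HSP70 were the 10 with the highest r among genes at 20 CPM in at least 1 sum or seen in at least 5% of cells, and 1 of them is not reported here. Alternatives covered doublets, filters, clustering, gating, weighting, thinning, scaling, the fold and the UMI minimum. Promoters came from RefSeq, and gene positions and transcripts from GENCODE M21 on GRCm38, which is the mm10 assembly. Hspa8 and Hsp90aa1 had no promoter entry.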

Additional observations from a re-analysis of the deposited data

Results flagged for a closer look

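The Dnajb1 gene had a ratio of 1.575 in basophils, UDSP-Hep over PBS, while it was lower past the fold in 5 other classes. In macrophages and monocytes Dnajb1 had 40.7 CPM in UDSP-Hep and 68.2 CPM in PBS. With 1 library per group the difference between these classes was not tested.

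The Hspd1 gene had a ratio of 5.447 in neutrophils, UDSP-Hep over PBS, against 0.525 in basophils, the other class in which it passed the fold as reported, though not with the per-cell gate. The neutrophil value rests on 72 UDSP-Hep UMIs and 1 PBS UMI, and the difference between the classes was not tested.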

How the results depend on the processing

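The HSP70 log2 ratio in macrophages and monocytes, -3.51 as reported, stayed below equality in all 15 alternatives. It was -3.17 with doublets kept, -3.33 with chaperone genes kept in clustering, -3.29 at Leiden resolution 2.0, -2.95 with a per-cell marker gate, -3.64 with median-of-ratios scaling, -2.87 with clusters weighed the same and, without cluster M0, which Hspa1a and Hspa1b lead, -3.42. The last and the removal of barcodes found in both libraries (-3.49) were chosen after seeing the data. Classes with HSP70 lower past the fold were 6 to 9, of 7 to 9 compared. Pairs lower past the fold were 27 as reported, 13 at a fold of 2, and 21 to 32 otherwise. Pairs higher past the fold were 2 as reported, 0 with the per-cell gate, 3 with every cell weighed the same, and 1 with doublets kept, under 20% mitochondrial UMIs, at a minimum of 1000 UMIs per cell, with chaperone genes kept in clustering, at Leiden resolution 0.5 or 2.0, with cells thinned to 1000 UMIs and at a fold of 2.

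Among the 68 other log2 ratios, 836 of 994 values stayed within the counting interval of the reported one, 147 moved beyond it, and 11 changed the sign of a value past the fold. Another 40 changed sign where the reported value was not past the fold. Of the 29 pairs past the fold, 15 stayed past it under every alternative and 14 came inside it or turned under at least 1. The Hspd1 log2 ratio in neutrophils changed sign under 20% mitochondrial UMIs (-0.17), at 1000 UMIs per cell (-0.12), with chaperone genes kept in clustering (-0.16), at Leiden resolution 0.5 (-0.031) and with the per-cell gate (-0.38). The Hsph1 log2 ratio in neutrophils (0.61 and 0.49), the Dnajb1 log2 ratio in basophils (-0.0061 and -0.14) and the Hspb1 log2 ratio in CD8 T cells (1.17 and 1.68) changed sign with every cell weighed the same and with cells thinned to 1000 UMIs. The cause was not tested. The HSP70 log2 ratio in neutrophils ranged from -2.14 to 1.07. No paired analysis was possible because each group is 1 library. Depth limits neutrophils and basophils most, where the PBS sums held 156399 UMIs and the UDSP-Hep sums 312798 UMIs.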
